A study of Rattus norvegicus with 8 samples.

Results

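The cadherin and protocadherin genes were taken as every gene on the array whose name is Cdh followed by a number or begins with Pcdh. The array carried 74 such probes with 53 gene names. A probe was kept if 4 or more of the 8 arrays gave it the scanner's flag for a signal well above background and both groups had values. This left 62 probes and 47 genes, among 27161 kept probes with 22960 distinct names in all. Just inside this limit, 1 probe had the flag on 4 arrays (a second probe of Cdh5) and 2 on 5 arrays (Pcdha2 and Pcdhb6); just outside it was 1 probe on 2 arrays (Cdh17), and 10 had it on none. For a gene with several kept probes, the brightest stood for it. Names with no kept probe were Cdh16, Cdh17, Cdh26, Pcdh12, Pcdhb1 and Pcdhga11.

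RNA came from the medial thalamus of male Sprague-Dawley rats. In 4 rats the trachea was occluded repeatedly while the animal was conscious, a block lasting 3 to 10 breaths and the pause after it about 30 s, and 4 surgical control rats had sessions without occlusions. There was 1 session a day for 10 days, and the tissue was taken after an anaesthetic overdose given no later than 10 min after the closing session. One array was used per animal. The labels give no age and no other treatment that separates the groups. The comparison asks whether transcripts of these adhesion genes differ between conditioned and control thalamus.

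Cadherins are calcium-dependent adhesion proteins whose extracellular repeats bind partners on the neighbouring cell and whose classical members hold on to the actin cytoskeleton through catenins. Protocadherins share the repeats but not the catenin link. The clustered protocadherins, in alpha, beta and gamma groups that lie one after another on a chromosome, are expressed in different combinations by single neurons from separate promoters, and this gives neighbouring cells distinct surface identities. In the thalamus, classical type II cadherins and non-clustered protocadherins are known to mark particular nuclei, so the mix of nuclei in a dissected piece bears on their level.

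Each clustered gene begins with its own promoter, and a shared element with the core CGCT, to which CTCF is known to bind, lies before most of them. The sequences show the form of that element in members measured here, because the beta genes are described together further on. They were read from the RefSeq promoter table (build GRCr8), which holds 250 bases before each start. Capitals mark the 10-base word found before the most genes of the cluster, GGTGGCGCTG for beta and GCTGTTCACC for gamma, within 60 bases of the plus strand.
Pcdhb3, chr18:29285594-29285653: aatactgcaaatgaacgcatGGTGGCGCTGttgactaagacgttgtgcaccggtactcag
Pcdhb4, chr18:29292201-29292260: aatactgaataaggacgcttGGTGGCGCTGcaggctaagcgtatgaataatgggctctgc
Pcdhb5, chr18:29302394-29302453: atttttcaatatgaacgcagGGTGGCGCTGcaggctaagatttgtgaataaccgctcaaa
Pcdhb7, chr18:29328988-29329047: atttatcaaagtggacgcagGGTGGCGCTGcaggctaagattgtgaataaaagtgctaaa
Pcdh3, chr18:29413638-29413697: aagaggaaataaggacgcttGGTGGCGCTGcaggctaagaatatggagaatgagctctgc
Pcdhb14, chr18:29431799-29431858: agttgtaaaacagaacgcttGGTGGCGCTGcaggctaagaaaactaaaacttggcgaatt
Pcdhga9, chr18:29815779-29815838: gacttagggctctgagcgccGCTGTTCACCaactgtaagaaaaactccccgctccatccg
GGTGGCGCTG was found, on either strand, before 14 of the 19 beta genes in the table (73.7%), before none of 14 gamma genes and before 55 of all 27457 genes (0.2%). GCTGTTCACC was found before 7 of the 14 gamma genes (50%), before none of the beta genes and before 26 of all genes (0.0947%). The bare core CGCT, which the first word contains, was in 56.7% of all promoters. It was in 78.9% of the beta and 78.6% of the gamma promoters, but also in 77.8% of those of member genes outside the clusters. Of 14 beta and gamma members measured here that matched a promoter, 9 carried the first word, 2 the second and 3 neither, Pcdhgc3 among the last. Both words were picked because they were common in these clusters, and a match is a description of the sequence, not of binding. Pcdh3 is the name on the array of the gene that RefSeq calls Pcdhb12, and Pcdh21 that of Cdhr1.

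The share of spots with the flag ran from 65.0% to 71.6% over the arrays, that of saturated spots from 1.05% to 1.55%, and the upper quartile (75th percentile) of processed signal from 1370 to 2134. None of the 47 genes was saturated, and 41 had the flag on all 8 arrays. All levels below are log2 processed signal minus that percentile, so 0 is the upper quartile of the array, and they compare arrays, not genes. The arrays lay on 2 slides, each scanned on its own and each with 2 arrays of either group: slide 1 held occlusion arrays 1 and 3 and control arrays 1 and 4. The marker lists showed that the pieces of tissue differed in content. The summed level of habenula markers was 1.77 on occlusion array 3, 1.54 on control array 3 and 2.61 on control array 4, against 3.1 to 4.96 on the other arrays. That of hypothalamus markers, from 4 genes, was 6.58 on occlusion array 3, 5.18 on occlusion array 4 and 6.15 on control array 4. On the other arrays it was 1.08 to 2.04. Markers of the reticular nucleus and inhibitory neurons, all 10 of them kept, had a summed level of 2.45 to 5.54 in the occlusion group and 4.54 to 6.13 in the controls, with overlap through occlusion array 3 and the highest level on control array 3. Among them Gad1, which makes GABA, had a difference of -2.5 (SE 0.65) and Slc32a1, which loads it into vesicles, one of -2.01 (SE 0.61), occlusion minus control, neither past the test. The others of this list ran from -3.02 for Spp1 (SE 1.14) to 0.05 for Dlx1 (SE 0.43), with Isl1 at 0.01 (SE 1.69). Its genes thus did not all differ alike. Thalamic relay neuron markers, 11 of 14 listed being kept, had a summed level of 6.58 to 7.21 on the occlusion arrays and 6.17 to 6.76 on the control arrays, which overlapped. Their mean log2 level was 0.65 to 1.17 and -0.25 to 0.59, which did not. In bulk tissue, fewer cells of a type and less RNA per cell cannot be told apart, and the part of these differences in the results below was not tested.

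No cadherin or protocadherin gene passed the test between the groups (adjusted p under 0.05, limma with Benjamini-Hochberg adjustment over all kept probes). No probe of the 27161 did either (0%), and the smallest adjusted p was 0.414. At an unadjusted p under 0.05 there were 5 member genes of 47 (10.6%), against 10.8% of all kept probes. The occlusion mean was the higher in 4 of them and the lower in 1, while these shares were 7.05% and 3.74% of all kept probes. In 3 genes (6.38%) the 4 occlusion arrays lay on one side of the 4 control arrays, against 6.37% of all kept probes. The occlusion mean was above the control mean in 23 genes (48.9%, against 56.6% of all kept probes) and below it in 24, and the median difference was -0.01 against 0.04 over all kept probes. By all of these counts the genes stood at the background of the array. Without the 3 arrays lowest in habenula markers none was called, 7 were at an unadjusted p under 0.05 (10.4% of all kept probes) and 14 had groups apart (28.9% of all kept probes). The 5 genes were Pcdhgc3, Cdh13, Pcdha2, Cdh8 and Cdh6. Of these, Pcdha2 was well above background on 4 occlusion arrays but on only 1 control array, so it passed the filter through the group where it was the higher.

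**Figure D1:**
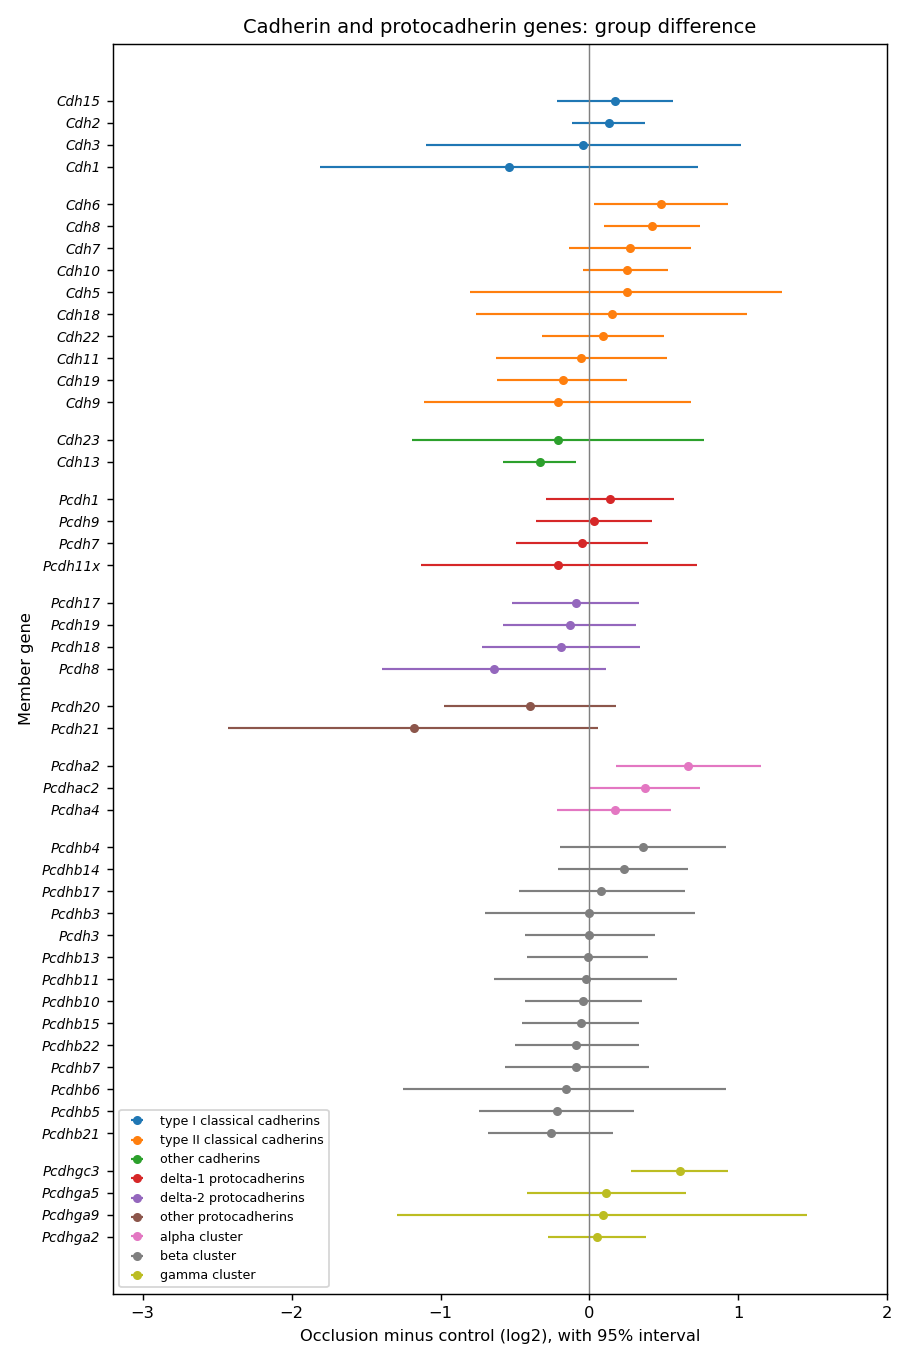
The horizontal axis is the occlusion mean minus the control mean (log2) and each row is a gene, coloured by class; points are limma estimates from 4 arrays a group (3 in one group for Cdh22 and Cdh18) and bars are 95% intervals. Most intervals cross 0, and the lowest estimate, Pcdh21 at -1.18, has one of the widest.

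Among the type I classical cadherins, N-cadherin, Cdh2, the main neuronal member at synapses, was among the least variable. Its levels were 1.39, 1.4, 1.54 and 1.21 on occlusion arrays 1 to 4 and 1.23, 1.22, 1.24 and 1.34 on control arrays 1 to 4. All control values lay within the occlusion range, the difference was 0.13 (SE 0.11, 95% interval -0.12 to 0.37, adjusted p = 0.693), and the pooled SD within groups was 0.1. The Cdh2 probe had 10 spots on an array, which were averaged, and the part of this in its small SD was not tested. E-cadherin, Cdh1, the adhesion protein of epithelia, was measured at -4.74, -4.18, -6.26 and -4 in the occlusion group and at -3.77, -3.43, -4.65 and -5.16 in the controls. It was well above background on 3 of 4 occlusion arrays and on all controls. Occlusion array 3 lay lowest, the groups overlapped, and the difference was -0.54 (SE 0.55, adjusted p = 0.747). Without that array it was -0.05. Choroid plexus markers, another epithelial source in this region, had a summed level of 2.46 to 3.59 in the occlusion group and 1.49 to 3.43 in the controls. P-cadherin, Cdh3, gave a difference of -0.04 and M-cadherin, Cdh15, known from muscle and cerebellum, one of 0.17.

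The type II classical cadherins, which sort neurons of different nuclei and circuits, had 10 kept genes. The occlusion mean was the higher in 7 and their median difference was 0.2. Cdh8, found in subsets of thalamic and cortical neurons, had levels of 0.04, 0.05, -0.41 and 0.08 in the occlusion group and -0.44, -0.43, -0.42 and -0.64 in the controls. All occlusion arrays lay above all control arrays, though occlusion array 3 only just cleared the control arrays. The difference was 0.42 (SE 0.14, adjusted p = 0.414). It was 0.35 on slide 1 and 0.49 on slide 2. The second Cdh8 probe, which lists no RefSeq transcript, gave -0.1 (SE 0.15), and the mean of both probes gave 0.16.

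Cdh6, another type II cadherin of restricted brain regions, was at 0.55, 1.02, 0.66 and 0.33 in the occlusion group and at 0.41, 0.1, -0.25 and 0.37 in the controls. Occlusion array 4 fell within the control range, and the lowest value was control array 3. The difference was 0.48 (SE 0.2, adjusted p = 0.444), with 0.21 on slide 1 and 0.75 on slide 2. Cdh10 was at 1.36, 1.25, 1.06 and 1.2 in the occlusion group and at 0.78, 0.88, 1.17 and 1.04 in the controls, a difference of 0.25 (SE 0.13, adjusted p = 0.501). Here control array 3 lay above occlusion array 3, so the groups overlapped. Its 3 probes gave 0.2 to 0.25. The relay and inhibitory marker levels given above differed between the groups as well, and their part in these differences was not tested.

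VE-cadherin, Cdh5, the junction protein of endothelium, had levels of -4.02, -5.29, -3.79 and -5.15 in the occlusion group and -3.97, -5.49, -5.35 and -4.43 in the controls. High and low arrays were found in both groups, and the difference was 0.25 (SE 0.46, adjusted p = 0.88). It was -0.01 without occlusion array 3. Of the rest, Cdh7 gave 0.27, Cdh18 0.15, Cdh22 0.09, Cdh11 (osteoblast cadherin, also in meninges) -0.06, Cdh19 (of the glial lineage of peripheral nerve) -0.18 and Cdh9 -0.21. Cdh22 lacked a value on occlusion array 1 and Cdh18 on control array 3 because of outlier flags. The 4 probes of Cdh11 all gave values below 0, from -0.52 to -0.06.

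Cdh13, or T-cadherin, which is held in the membrane by a lipid anchor and has no catenin link, was the one member whose occlusion arrays all lay below the controls. Its levels were 2.67, 2.58, 2.88 and 2.74 in the occlusion group and 3.02, 3.09, 3.11 and 2.99 in the controls. The highest occlusion value, on array 3, was under the lowest control value, on array 4. The difference was -0.33 (SE 0.11, 95% interval -0.58 to -0.09, adjusted p = 0.414), and groups lay apart in this direction in 2.25% of all kept probes. It was -0.23 on slide 1 and -0.44 on slide 2, and leaving out single arrays gave -0.39 to -0.29. The probe lies on chromosome 19 at 49579798 to 49579857, plus strand, in the coordinates of the files (assembly rn3), whose annotation was not used here. A second Cdh13 probe on the same chromosome gave -0.14 (SE 0.14) with overlapping groups. Cdh23, part of the tip link of hair cells, gave -0.21 (SE 0.43).

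Of the non-clustered protocadherins, 4 were of the delta-1 class, whose long cytoplasmic tails bind a phosphatase. Pcdh9 had levels of 3.52, 3.64, 3.45 and 3.01 in the occlusion group and 3.49, 3.58, 3.11 and 3.32 in the controls. The arrays interleaved and the difference was 0.03 (SE 0.17, adjusted p = 0.965). Its 4 probes disagreed in sign, from -0.41 to 0.25. Pcdh1 gave 0.14, Pcdh7 -0.05 and the X-linked Pcdh11x -0.21.

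All 4 kept delta-2 protocadherins, a class in which the tails of some members bind the actin regulator WAVE, had a lower mean in the occlusion group. The values were -0.64 for Pcdh8, -0.19 for Pcdh18, -0.13 for Pcdh19, the gene of a female-limited epilepsy, and -0.09 for Pcdh17, and the smallest adjusted p was 0.505. On slide 2 alone Pcdh18 was at 0.15 and on slide 1 alone Pcdh17 at 0.04, so the shared direction did not hold within both slides. Pcdh8, also called arcadlin and known to be induced by neuronal activity, was at -0.25, -0.2, 0.08 and 0.27 in the occlusion group and at 0.23, 0.41, 1.66 and 0.17 in the controls. Control array 3 stood far above the other controls, and without it the difference was -0.29 (with it, SE 0.33). The 2 Pcdh17 probes disagreed in sign (-0.09 and 0.16).

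Control array 3 was also highest for both remaining protocadherins. Pcdh21, or Cdhr1, known from photoreceptors and olfactory bulb output neurons, was at 0.35, 1.19, 0.54 and 0.46 in the occlusion group and at 1.62, 1.68, 3.46 and 0.52 in the controls. Control array 4 lay within the occlusion range. The difference of -1.18 (SE 0.55, adjusted p = 0.479), a fold of 2.27, was the largest in size among all 47 genes, and it was -0.64 without control array 3 and -0.98 without the 3 arrays lowest in habenula markers. On slide 1 it was -0.62 and on slide 2, which holds control array 3, -1.74. Pcdh20 was at -3.38, -3.02, -3.11 and -2.85 in the occlusion group and at -2.93, -2.83, -1.92 and -3.08 in the controls, a difference of -0.4 (SE 0.25) that was -0.15 without control array 3. Control array 3 was the array with the highest inhibitory and the lowest habenula markers, whose part in these 3 differences was not tested.

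The alpha cluster had 3 kept genes, of which Pcdha4 and Pcdhac2 were well above background on all arrays. Pcdha2 was at -4.11, -4.22, -4.39 and -5.09 in the occlusion group and at -5.05, -5.02, -5.12 and -5.27 in the controls. With only 1 control array well above background, the control level is close to a bound, and occlusion array 4 lay within the control range. The fitted difference of 0.66 (SE 0.21, adjusted p = 0.414) came to 0.3 after normexp background correction and is not a measured size. Pcdhac2, the C-type alpha gene known from the spacing of serotonergic axons, was at 2.36, 2.25, 2.27 and 1.97 in the occlusion group and at 1.81, 1.59, 1.74 and 2.23 in the controls, a difference of 0.37 (SE 0.16, adjusted p = 0.461). Only control array 4 reached into the occlusion range. The Pcdhac2 probe lists 4 RefSeq transcripts, and alpha transcripts share their last exons, so it may read others of the cluster. A second Pcdhac2 probe was well above background on all 8 arrays but had too few values after outlier flags. Pcdha4 gave 0.17 (SE 0.17).

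The gamma cluster held the gene with the smallest unadjusted p of all members. Pcdhgc3, a C-type gamma gene, was at -2.93, -3.27, -3.45 and -3.29 in the occlusion group and at -3.9, -4.03, -3.69 and -3.74 in the controls. Every occlusion array lay above every control array, as in 4.12% of all kept probes. The difference was 0.61 (SE 0.14, 95% interval 0.28 to 0.93), a fold of 1.52, with an unadjusted p of 0.00254 and an adjusted p of 0.414 by limma. It was 0.63 on slide 1 and 0.58 on slide 2, ran from 0.5 to 0.68 when single arrays were left out, was 0.8 without the 3 arrays lowest in habenula markers, and was 0.36 after normexp correction.

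The second Pcdhgc3 probe allowed a check within the gene. Both probes lie on chromosome 18, plus strand, in the rn3 coordinates of the files, at 30742867 to 30742926 and at 30743303 to 30743362. The second was at -3.13, -3.66, -4.22 and -3.44 in the occlusion group and at -4.05, -5.29, -3.85 and -4.04 in the controls. It gave a difference of 0.69 (SE 0.35), and here occlusion array 3 lay within the control range. This second probe was well above background on only 3 control arrays. Control array 2, at -5.29, lay far below the other controls and adds to the size of the difference. The other gamma genes gave 0.11 (Pcdhga5), 0.09 (Pcdhga9) and 0.05 (Pcdhga2), so all 4 means were higher in the occlusion group, but Pcdhga5 was at -0.36 on slide 2 alone and Pcdhga9 at -0.09 without the 3 arrays lowest in habenula markers.

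**Figure D2:**
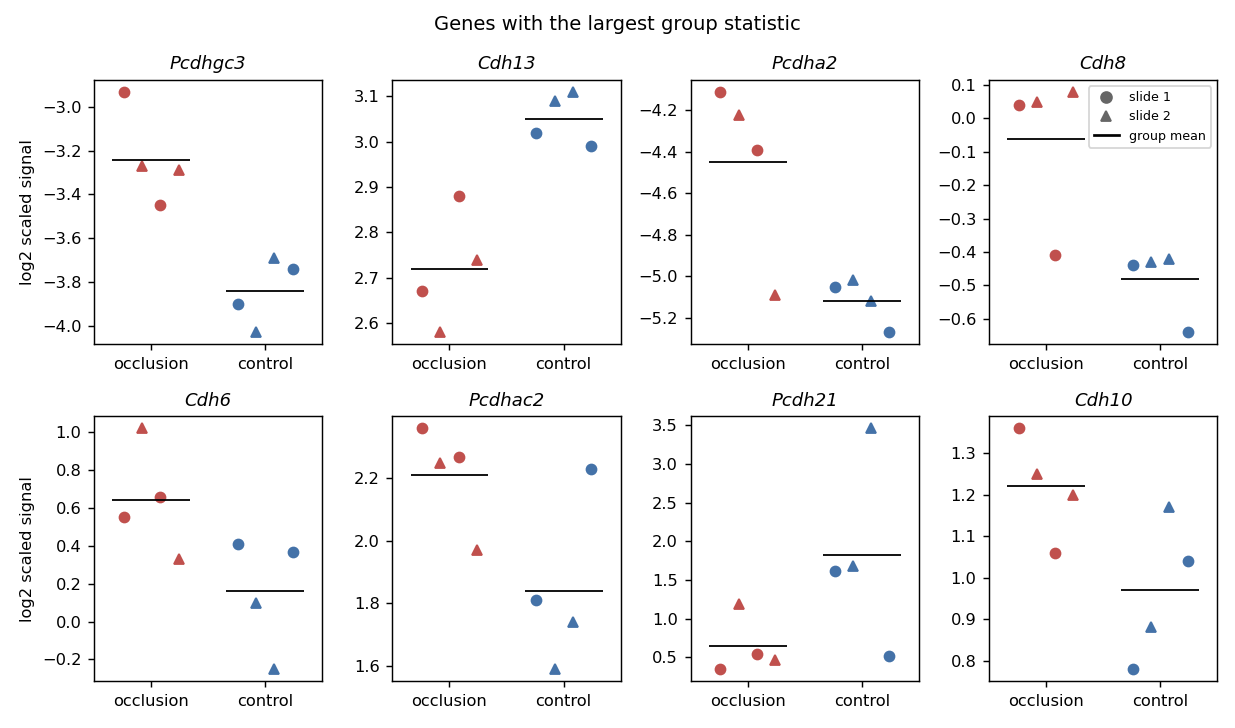
The vertical axes are log2 scaled signal, one panel for each of the 8 genes with the largest moderated statistic; circles are arrays of slide 1, triangles those of slide 2, and bars are group means of 4 arrays. Occlusion and control arrays are apart in Pcdhgc3, Cdh13 and Cdh8, and control array 3 at 3.46 stands alone in Pcdh21.

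The beta cluster was the largest class, with 14 genes, and none was at an unadjusted p under 0.05. Differences ran from -0.26 (Pcdhb21) to 0.36 (Pcdhb4), with a median of -0.03 and a higher occlusion mean in 5 genes. Pcdhb14 gave 0.23, Pcdhb17 0.08, Pcdh3 and Pcdhb3 0, Pcdhb13 -0.01, Pcdhb11 -0.02, Pcdhb10 -0.04, Pcdhb15 -0.06, Pcdhb7 and Pcdhb22 -0.09, Pcdhb6 -0.16 and Pcdhb5 -0.22. Their levels were set against each gene's own mean over the 8 arrays. On occlusion arrays 1 and 4, 12 of the 14 genes were above it, against 1 on occlusion array 2 and 3 on occlusion array 3. Among the controls it was 11 on arrays 1 and 4, 6 on array 2 and 4 on array 3. Not all genes followed: in the controls Pcdhb5 was at -1.87, -1.7, -1.51 and -1.55, with array 3 highest.

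Both groups thus held arrays where most beta genes were high and arrays where most were low. Occlusion array 1 was the highest of its group in 8 of the 14 genes, and so was control array 4 in its group, against 9941 and 6807 of the 26054 kept probes with all values. Pcdhb3 showed the range, with -3.01, -4.02, -4.1 and -3.65 in the occlusion group and -3.43, -4.12, -4.11 and -3.14 in the controls. Over all kept probes the share above their own mean was 70.8% on occlusion array 1, 43.5% on array 2, 60.8% on array 3 and 41% on array 4, and on control arrays 1 to 4 it was 50.9%, 46.9%, 45% and 49.6%. For the beta genes the shares were 85.7%, 7.14%, 21.4% and 85.7% on the occlusion arrays, so arrays 3 and 4 stood the other way round, and 78.6%, 42.9%, 28.6% and 78.6% on the controls. Among the 31 other members with all values, 67.7% were above their mean on occlusion array 3 and 35.5% on array 4. Some dimmer probes of other members followed the beta genes. The dimmest Cdh10 probe was at -0.74, -1.35, -1.68 and -0.47 in the occlusion group. The second Pcdhb13 probe did not follow, at -3.44, -3.71, -3.6 and -4.24. In 10 member genes the brightest probe was compared with the mean of the others. Set against each gene's own mean, the median gap was -0.09, 0.11, 0.15 and -0.2 on these arrays. The pattern was thus not confined to beta genes. No test was made of this pattern. Probes of some beta genes share sequence: those of Pcdhb22 and Pcdhb7 were identical at 30 of the 38 bases that overlapped in the best match. Those of Pcdhb5 and Pcdhb11 were identical at 34 of 55. The best match of a beta probe to a probe of any other member gene had a median of 29 identical bases and at most 34. Over all members the median was 26, and no probe reached 45. Probes were compared with probes only, not with the transcripts of other genes. These values therefore do not show how far a probe may read other genes. The part of shared sequence in the pattern was not tested.

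**Figure D3:**
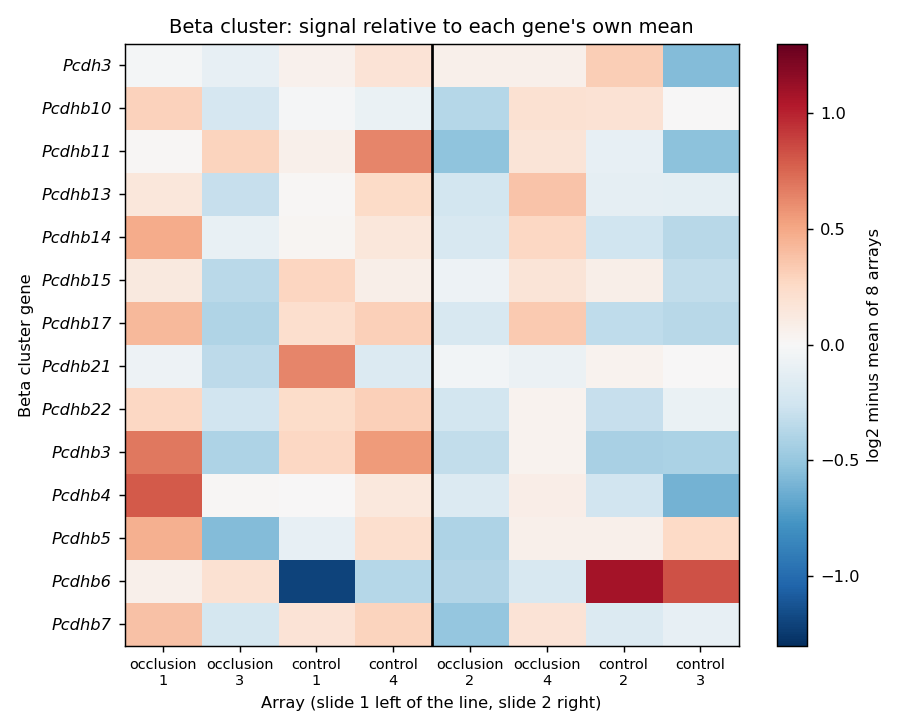
Each row is a beta cluster gene and each column an array, with slide 1 left of the line; the colour is the log2 level minus the mean of that gene over the 8 arrays. Occlusion array 1 and control array 4 are mostly red and occlusion array 2 mostly blue, while Pcdhb6, close to background, goes its own way.

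The genes that differed most between arrays of one group, by the pooled SD of both groups, were Pcdhga9 (0.99), Cdh1 (0.92), Pcdh21 (0.9), Pcdhb6 (0.78), Cdh3 (0.76), Cdh5 (0.75), Cdh23 (0.7) and Pcdh11x (0.66). The median was 0.29 over the members and 0.25 over all kept probes, and 7 of the 47 genes lay above the 90th percentile of kept probes, 0.66. Several of these genes were dim. Processed signal was 17.9 to 157 for Cdh1, 26.3 to 122 for Pcdhb6 and 37.7 to 115 for Cdh5. It was 57 to 249 for Pcdhga9, 66.9 to 257 for Cdh3, 172 to 654 for Pcdh11x and 202 to 835 for Cdh23. Pcdh21, at 1860 to 20100, was brighter. The part of low signal in these SDs was not tested. For some of these genes the arrays split by slide. Pcdhga9 was at -2.77 and -2.96 on the occlusion arrays of slide 1 and at -4.34 and -4.77 on those of slide 2. Its controls were at -2.85 and -3.07 on slide 1 and at -4.9 and -4.36 on slide 2. Cdh3 was at -3.49, -3.87, -3.16 and -4.7 in the occlusion group and at -2.8, -4.09, -4.77 and -3.42 in the controls. For both genes every array of slide 1 lay above every array of slide 2, as it did in one direction or the other in 6 of the 47 genes (12.8%), against 10.8% of all kept probes.

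With the slide as a term beside the group in limma, a fit added after the values had been seen, Pcdhga9 was lower on slide 2 by a difference of -1.68 (SE 0.16, adjusted p = 0.000503). Cdh5 differed between the slides by -1.27 (SE 0.14, adjusted p = 0.00082), Cdh3 by -1.14 (SE 0.26, adjusted p = 0.0342) and Cdh18 by -0.93 (SE 0.2, adjusted p = 0.0375). These 4 of 47 genes were the ones called, all lower on slide 2, against 7.19% of the 27158 probes tested (6.23% lower and 0.957% higher). Within a slide the group differences of Pcdhga9 were 0.1 and 0.07, and those of Cdh5 0.29 and 0.2. The second Cdh5 probe, well above background on only 4 arrays, overlapped between the slides. Its highest level, -3.97, was on occlusion array 4 of slide 2. Its other levels were -4.79, -5.14, -5.14 and -5.63 on slide 1 and -6.35, -6.06 and -5.75 on slide 2. Endothelial markers, summed over the 7 with all values, were at 3.59 to 3.9 on slide 1 and 3.54 to 3.83 on slide 2, which overlapped. Their part in the level of Cdh5 was not tested. The probes of the 4 genes were 46.7% to 55% G and C, against 33.3% to 68.3% over the members, whose median was 45%. The median was 50% over all probes lower on slide 2 and 43.3% over all kept probes. The part of base composition in the slide differences was not tested.

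**Figure D4:**
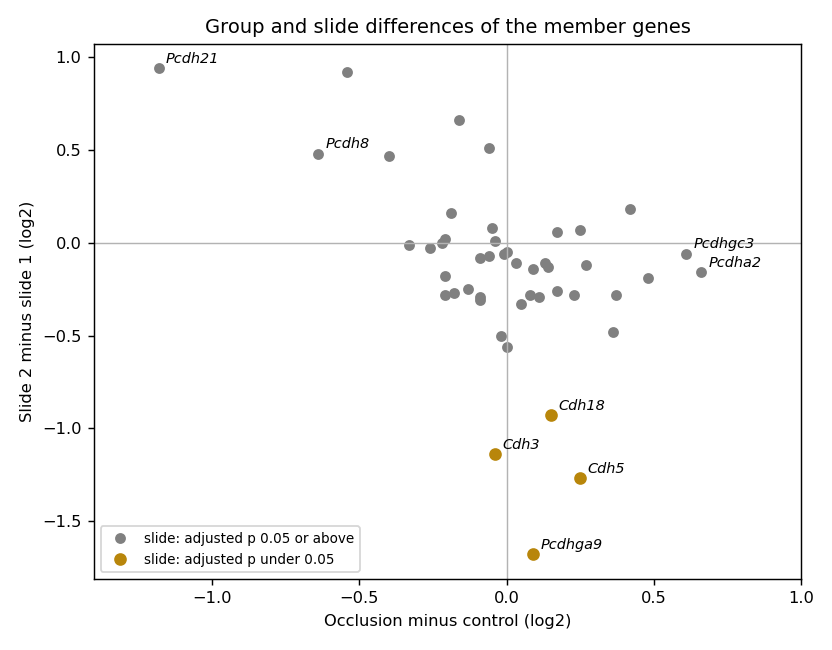
The horizontal axis is occlusion minus control and the vertical axis slide 2 minus slide 1, both log2, with one point per gene. The 4 genes with an adjusted p under 0.05 for the slide, Pcdhga9, Cdh5, Cdh3 and Cdh18, lie low on the slide axis and near 0 on the group axis.

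In Pcdhb6, Cdh23 and Pcdh11x the slides overlapped. Pcdhb6, well above background on 5 arrays, was at -4.82, -5.27, -4.69 and -5.09 in the occlusion group and at -6.09, -3.8, -4.06 and -5.26 in the controls, so its spread lay in the controls. Cdh23 was at -2.39, -2.92, -1 and -1.56 in the occlusion group and at -2.32, -1.97, -1.58 and -1.18 in the controls, with occlusion array 2 lowest and occlusion array 3 highest. After that array, control array 4 and occlusion array 4 came next, with control array 3 close behind. Occlusion arrays 3 and 4 and control array 4 were those high in hypothalamus markers, whose part in the level of Cdh23 was not tested. Pcdh11x ran from -3.08 on occlusion array 1 to -1.1 on occlusion array 3, with occlusion arrays 2 and 4 at -2.03 and -1.75. Its controls were at -1.54, -1.37, -2.36 and -1.86, inside the occlusion range. Cdh9 and Cdh18 came next, both with a pooled SD of 0.64.

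**Figure D5:**
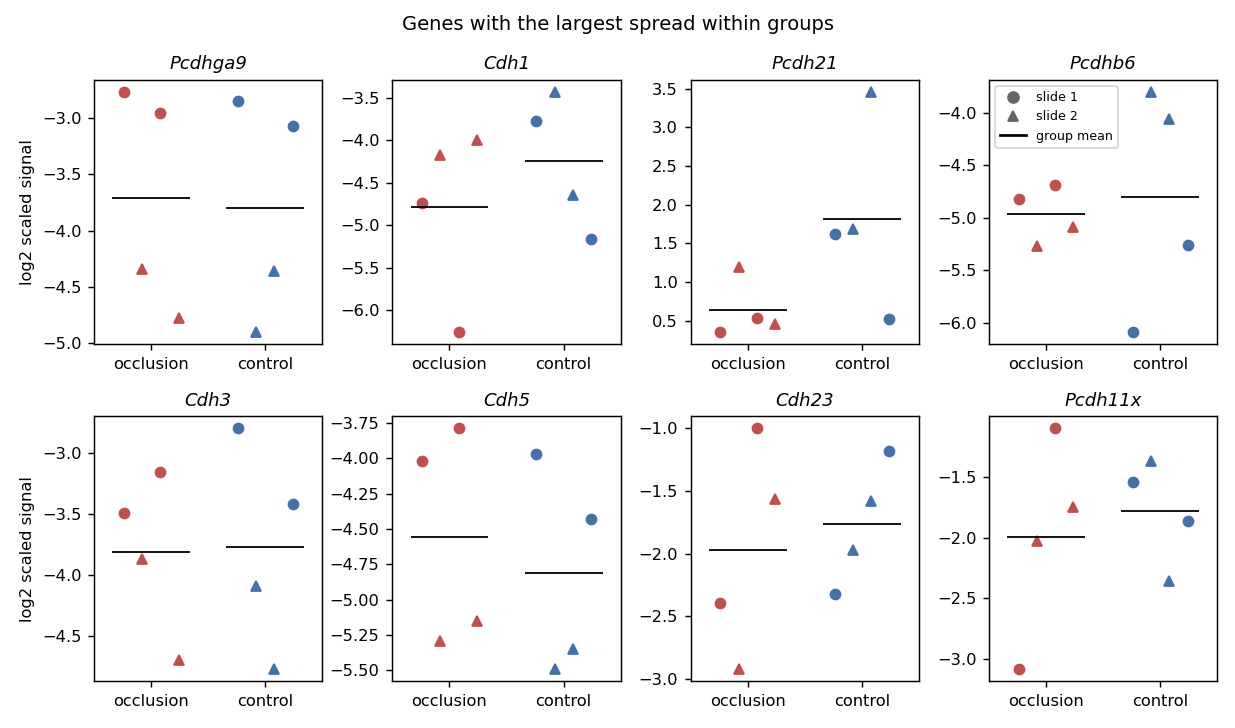
The vertical axes are log2 scaled signal for the 8 genes with the largest pooled SD; circles are slide 1, triangles slide 2, and bars are means of the 4 arrays of a group. In Pcdhga9 and Cdh5 the circles lie above all triangles in both groups, whereas in Pcdh21 control array 3 stands above all others.

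The proteins that cadherins and protocadherins work with were examined as lists. None of their genes passed the test, and their counts are to be read against 56.6% of all kept probes with the higher mean in the occlusion group and 10.8% at an unadjusted p under 0.05. Of 9 kept catenins and junction adaptors 7 had the higher mean in the occlusion group, 1 at an unadjusted p under 0.05. This was plakoglobin, Jup, with a difference of 0.43 (SE 0.15, adjusted p = 0.414), whose levels of 1.77, 1.4, 1.43 and 1.83 lay above the controls at 1.26, 1.14, 0.95 and 1.37. Ctnnal1 gave 0.31, Magi2, a scaffold protein, -0.06 and vinculin, Vcl, -0.15. Of 10 kept other members of the cadherin superfamily 8 were higher. They included Clstn1 (0.43) and Celsr3 (0.3), while Dchs1 (-0.21) and Ret (-0.28) were the lowest.

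Of 13 kept protocadherin effectors, the WAVE complex and kinases, 10 were higher, led by Nckap1, a WAVE subunit, at 0.18 (SE 0.1) with no overlap between groups and Ptk2b, a focal adhesion kinase, at 0.7 (SE 0.41). Ryk at -0.31 and Cyfip1 at -0.36 were the lowest. Of 7 kept regulators of the cluster promoters 6 were lower, with Stag2, a cohesin subunit, at -0.3, Dnmt3b at -0.38 and Ctcf at -0.02. The DNA methyltransferase Dnmt3a, at 0.5 (SE 0.2, adjusted p = 0.435), was the one with the higher mean and the one at an unadjusted p under 0.05. Of 8 kept proteases that cleave cadherins 4 were higher and 4 lower, among them Aph1a (0.33), Psen2 (0.22), Adam17 (-0.23) and Adam9 (-0.42).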

How the data were processed

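Per the file headers, the authors scanned each array in 1 channel (Cy3) with Agilent Feature Extraction 9.5.1.1. The deposited processed signal is a linear intensity, background-subtracted and detrended, with no scaling across arrays. A deposited series table carries that intensity within 0.497%. From the scanner files, control spots and outlier spots were left out, log2 was taken and the 75th percentile of each array subtracted; spots of a probe were averaged. Probes well above background on 4 or more of the 8 arrays with at least 2 values per group were kept.

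Groups were compared with limma 3.58.1 in R 4.3.3 (lmFit, then eBayes), with two-sided p-values adjusted by Benjamini-Hochberg across every kept probe and a threshold of 0.05. On data simulated with independent noise and no slide differences, the fit recovered 49 of 100 changes of 1 log2. It recovered 84 of 100 changes of 2 log2. Changes of the sizes seen here could thus be missed. The labels speak of separate animals. The members and lists were chosen with earlier results of these data known. All kept members are named. Per-array values are given for the 8 with the largest moderated statistic, the 8 with the largest pooled SD, and Cdh1, Cdh2, Cdh5, Cdh13 and Pcdh9. The second Pcdhgc3 probe, Pcdh8, Pcdh20, Pcdhb3, Pcdhb5, Gad1, Slc32a1, Spp1, Isl1 and Dlx1 were added after their values were seen. Partner lists give the 2 highest and 2 lowest statistics. By accession 20 genes matched RefSeq, by symbol 24, and 3 did not. Alternatives were other scalings, background correction and filters, the mean over probes, the slide or replicate as a block, each slide alone, the series table and leaving out arrays. Replicate numbers were not taken to pair the arrays. Same-numbered deviations correlated at 0.355 and 0.514 for replicates 1 and 2, whose arrays shared a slide. They correlated at -0.071 and -0.283 for replicates 3 and 4, whose arrays did not. Over all pairs the range was 0.123 to 0.514 within a slide and -0.426 to -0.071 across slides. The check thus cannot tell pairing from slide. A gene of the marker lists is not reported here.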

Additional observations from a re-analysis of the deposited data

Results flagged for a closer look

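In 7 of 92 groups of 4 arrays, 1 array lay far from the other 3 relative to the range of the group (Dixon's 95% criterion), which chance gives in about 1 of 20 groups. Occlusion array 3 was low for Cdh8, at -0.41 with its neighbour at 0.04, for Cdh11, at -1.62 with its neighbour at -1.11, and for Pcdhb21, at -4.78 with its neighbour at -4.52. Control array 4 was low for Cdh8, at -0.64, and high for Cdh2, at 1.34. Control array 3 was high for Pcdh8, at 1.66 against 0.41 for the next, and control array 1 was high for Pcdh18, at -3.05.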

How the results depend on the processing

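No member gene passed an adjusted p of 0.05 under any of the 21 alternatives, whose smallest adjusted p among members was 0.18 (without control array 4). The count at an unadjusted p under 0.05 was 5, against 10.8% of all kept probes. It moved to 3 with the mean over all probes of a gene, against 10.8%. Leaving out single arrays gave 4 to 7, against 7.36% to 13.9% of all kept probes. The slide as a block gave 7, against 14.2%, and the replicate block 4, against 10.3%, with 0 called. Whether the replicate numbers pair the arrays could not be told apart from the slide. The count of genes whose groups did not overlap was 3, and became 0 with the mean over probes, against 6.36% of all kept probes. It was 16 of 47 on slide 1 alone and 21 of 46 on slide 2 alone (43.6% and 42.9% of all kept probes). There, 2 arrays a group overlap less often by construction. Without the 3 arrays lowest in habenula markers, an alternative chosen after seeing the data, it was 14 (28.9% of all). Leaving out single arrays gave 3 to 9, with 9 without occlusion array 4 (15.2% of all kept probes) and 6 without control array 4 (15.4%). Of the 8 most variable genes 5 stayed with a filter on all 8 arrays, 4 on slide 1 alone and 5 on slide 2 alone. Some single genes changed sign, none of them called in any setting, and the cause was not tested. With the mean over all probes of a gene the difference was -0.16 for Cdh22, 0.03 for Pcdh17, -0.20 for Pcdh9 and 0.04 for Pcdhb13. After normexp correction it was 0.04 for Pcdhb11. After quantile normalisation it was -0.01 for Pcdh9, 0 for Pcdhb13 and -0.03 for Pcdhb3. On slide 1 alone it was 0.15 for Cdh11, 0.05 for Cdh23, -0.02 for Cdh7, 0.05 for Cdh9, 0.04 for Pcdh17, -0.18 for Pcdh3, 0.07 for Pcdh7, 0.09 for Pcdhb10, -0.24 for Pcdhb17, -0.27 for Pcdhb3 and 0.92 for Pcdhb6. On slide 2 alone it was -0.17 for Cdh22, 0.14 for Cdh3, 0.15 for Pcdh18, -0.02 for Pcdh9, 0.15 for Pcdhb11, 0.19 for Pcdhb13, 0.18 for Pcdhb15, 0.09 for Pcdhb22 and -0.36 for Pcdhga5. Without the 3 arrays lowest in habenula markers it was 0.03 for Cdh11, -0.05 for Cdh22, -0.09 for Cdh5, -0.15 for Pcdh3, -0.14 for Pcdh9, 0.14 for Pcdhb13, 0.05 for Pcdhb22, 0.06 for Pcdhb5, 0.02 for Pcdhb7 and -0.09 for Pcdhga9. Leaving out single arrays gave -0.27 to 0.12 for Cdh11, -0.31 to 0.41 for Cdh18, -0.10 to 0.22 for Cdh22, -0.53 to 0.11 for Cdh23, -0.37 to 0.29 for Cdh3, -0.01 to 0.53 for Cdh5, -0.61 to 0.04 for Cdh9, -0.01 to 0.28 for Pcdh1, -0.50 to 0.16 for Pcdh11x, -0.24 to 0.04 for Pcdh17, -0.18 to 0.11 for Pcdh3, -0.19 to 0.08 for Pcdh7, -0.06 to 0.16 for Pcdh9, -0.15 to 0.07 for Pcdhb10, -0.21 to 0.18 for Pcdhb11, -0.14 to 0.09 for Pcdhb13, -0.17 to 0.05 for Pcdhb15, -0.05 to 0.23 for Pcdhb17, -0.20 to 0 for Pcdhb22, -0.22 to 0.19 for Pcdhb3, -0.59 to 0.17 for Pcdhb6, -0.23 to 0.07 for Pcdhb7, -0.03 to 0.11 for Pcdhga2, -0.05 to 0.32 for Pcdhga5 and -0.28 to 0.44 for Pcdhga9. Precision was limited by 4 arrays a group, and 6 genes, Pcdha2, Pcdhb6, Pcdhb11, Pcdhga5, Cdh1 and Cdh5, were not well above background on every array.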
